A study of Arabidopsis thaliana with 6 samples.

Results

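FLC, TEM1 and TEM2 are repressors of flowering, and all 3 are among 552 genes on the authors' lists of differences between wild-type Arabidopsis thaliana and a plant mutated in MRG1 together with MRG2. They were taken by their gene identifiers: AT5G10140 (FLC) from the deposited table of 21 lower genes, and AT1G25560 (TEM1) and AT1G68840 (TEM2, headed RAV2 there) from the deposited table of 531 higher genes. RNA came from leaves and stem of 12-day-old seedlings on soil at 22 °C, in days of 16 h light and 8 h dark, collected 8 h after lights on (ZT8). The groups were Col-0 (wild type) and mrg1 mrg2 in the same ecotype, with 3 libraries each from 3 independent experiments; the labels give no alleles for the mutant. Col-0 carries a loss-of-function allele of FRIGIDA, the activator of FLC, so FLC is naturally low in this accession. Since all 3 members were taken from lists of changed genes, their being listed is not a finding; the results here are the levels, the spread between libraries, the changes within each experiment and the relations among the genes.

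FLC encodes a MADS-domain transcription factor that represses the florigen gene FT and the floral integrator SOC1, and its silencing by prolonged cold and by the autonomous pathway lets plants flower. TEM1 (TEMPRANILLO1) and TEM2 (TEMPRANILLO2) encode related proteins with an AP2/ERF and a B3 DNA-binding domain, members of the RAV family, which repress FT in leaves and the gibberellin synthesis genes GA3OX1 and GA3OX2, so that juvenile plants do not flower. MRG1 and MRG2 are chromodomain proteins that bind methylated histone H3 at active genes and act with histone acetyltransferases. The study asked what these proteins do around the onset of flowering.

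FLC lies on chromosome 5, from 3173382 to 3179448 on the minus strand (TAIR10.1 annotation), with 7 exons in its longest transcript, a first intron of 3493 bases and a spliced length of 1042 bases. The antisense gene AT5G01675, from 3173371 to 3179600 on the plus strand, spans it entirely and was not listed. Libraries were stranded, but whether reads were counted by strand is not given in the sources used here, so sense and antisense reads at FLC cannot be told apart. TEM1 lies on chromosome 1, from 8981556 to 8983314 on the minus strand, in a single exon of 1759 bases. TEM2 lies on chromosome 1, from 25880155 to 25882222 on the plus strand, and its longest transcript is a single exon of 1801 bases. No other annotated gene overlapped TEM1 or TEM2, and of the 6 nearest protein-coding genes around each member (3 on either side) 0 were listed.

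Reads were 50 bases long, so it matters whether a read can be placed on TEM1 or TEM2. All 1710 windows of 50 bases along the TEM1 transcript and all 1752 along TEM2 occurred once in the genome when matched exactly. For FLC, 720 of 993 windows occurred once, 273 crossed an exon junction, and 0 occurred more than once. The closest windows of TEM1 and TEM2 differed at 2 bases, and only 1 of the 1710 TEM1 windows came within 2 mismatches of TEM2. This closest pair is shown because it is where reads of both genes are hardest to tell apart. It lies in the coding sequence, at chr1:8982705-8982754 (minus strand) in TEM1 and chr1:25880643-25880692 (plus strand) in TEM2, and capitals mark the bases that differ.
TEM1: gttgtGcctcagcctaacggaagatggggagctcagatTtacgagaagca
TEM2: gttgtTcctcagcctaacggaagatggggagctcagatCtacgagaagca
FLC and its relatives MAF1 to MAF5 differed at 3 or more bases in every window of 50 compared. The aligner, not given in the sources used here, decides how such reads were placed.

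The mutant label was checked on MRG2 (AT1G02740), which had 437, 380 and 403 raw reads in Col-0 replicates 1, 2 and 3, and 188, 111 and 96 in mrg1 mrg2. All mutant libraries were thus below all Col-0 libraries for MRG2, as was so for 95.2% of the 21 lower genes, and replicate 1 was the highest of the mutants. MRG1 was not among the listed genes, so that part of the label was not checked. The 16 markers of leaf, root, flower and seed set out for the tissue check were all unlisted too, so no marker level is given; in whole aerial parts, fewer cells of a type and less RNA per cell cannot be told apart. The 552 genes together held 194996 to 253738 reads per Col-0 library and 372415 to 432369 per mutant library. Such totals follow the choice of genes and are no measure of depth. The sample labels give the same minimum number of reads for every library, but not the depth that each library reached.

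FLC had the lowest level of the 3 repressors and fell in the mutant to less than it was in any Col-0 library. Raw reads on FLC were 116, 133 and 137 in Col-0 replicates 1, 2 and 3, and 39, 61 and 59 in mrg1 mrg2. After division by the size factors of the libraries, FLC had 114, 137 and 135 normalized counts in Col-0 and 40.8, 56.8 and 60.5 in the mutant. The groups did not overlap, as was so for 95.2% of the 21 lower genes, and replicate 1 was the lowest library of both genotypes. The FLC mean was 129 ± 12.7 normalized counts for Col-0 against 52.7 ± 10.5 for the mutant (SD over 3 libraries per genotype), 2.44-fold lower.

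Counting error was a large part of the spread of FLC. At these means Poisson counting gives an SD of 11.3 in Col-0 and 7.26 in the mutant, so the observed variance was 1.24 and 2.07 times the counting variance. Within the pairs FLC was 2.75-fold lower in replicate pair 1, 2.39-fold in pair 2 and 2.21-fold in pair 3. The mean log2 change over the pairs was -1.29 ± 0.16 (SD, n = 3 pairs). Pair 1 had the largest decrease of FLC, and all 3 pairs went the same way, as they did for 100% of the lower genes.

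In the authors' deposited table FLC had a log2 change of -1.29 and an adjusted p of 4.26e-05, among 0.0913% of the 22995 genes inferred to have been tested that were listed as lower. Because being listed chose the members, nothing is read from that share. An edgeR quasi-likelihood refit of the 552 listed genes gave FLC a log2 change of -1.28 (SE 0.20, adjusted p = 0.00038, Benjamini-Hochberg over the 552 genes). Since these genes had been picked for a difference, adjusting over them is lenient, and a gene was counted as passing only where its unadjusted value was at most 0.00161, the largest p in the authors' tables; in this fit that mark corresponds to an adjusted p of 0.00227. FLC passed it, as did 85.7% of the 21 lower genes, so passing does not set FLC apart from them. FLC ranked 16 of 21 lower genes by the size of its change in the authors' deposited table, where the median size was 1.63, and 14 of 21 by level. Level here is the mean normalized count over the 6 libraries, not divided by transcript length.

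**Figure D1:**
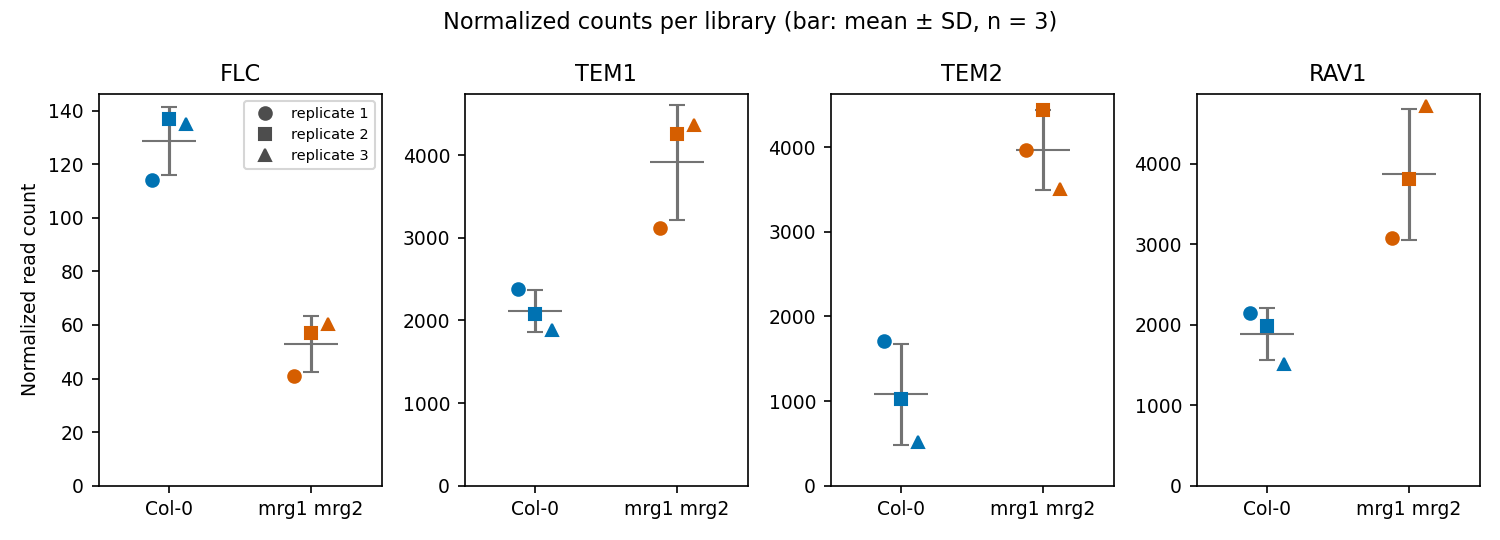
Normalized read counts (y axes, each starting at 0) of FLC, TEM1, TEM2 and the related gene RAV1 in the 3 Col-0 and 3 mrg1 mrg2 libraries; symbols give the replicate number, and bars the mean ± SD. FLC falls from 129 to 52.7 and the other 3 genes are higher in every mutant library; TEM2 spreads from 519 to 1709 in Col-0.

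TEM1 was abundant in Col-0 and higher in every mutant library. Raw reads on TEM1 were 2421, 2013 and 1909 in Col-0 replicates 1, 2 and 3, and 2974, 4571 and 4258 in mrg1 mrg2. Normalized, TEM1 had 2383, 2073 and 1883 counts in Col-0 and 3114, 4258 and 4367 in the mutant. The groups did not overlap, as was so for 99.8% of the 531 higher genes, but their nearest libraries were those of replicate 1, the highest Col-0 and the lowest mutant library. Mean levels of TEM1 were 2113 ± 253 normalized counts for Col-0 and 3913 ± 694 for the mutant (SD over 3 libraries per genotype), a 1.85-fold difference.

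Between replicate pairs the change of TEM1 varied more than that of FLC. It was 1.31-fold in replicate pair 1, 2.05-fold in pair 2 and 2.32-fold in pair 3, a mean log2 change of 0.88 ± 0.44 (SD, n = 3 pairs), and all 3 pairs were up, as in 100% of the higher genes. The variance of TEM1 was 30.2 times the counting variance in Col-0 and 123 times in the mutant, so counting error is a small part of its spread. In the authors' deposited table TEM1 had a log2 change of 0.89 and an adjusted p of 7.72e-05; 2.31% of the 22995 genes were listed as higher. The edgeR refit gave TEM1 a log2 change of 0.89 (SE 0.22, adjusted p = 0.00255 over the listed genes), which missed the mark that 70.6% of the 531 higher genes passed. TEM1 passed the mark with DESeq2 (log2 change 0.89, SE 0.22, adjusted p = 0.000111 over the listed genes), as did 83.6% of the higher genes.

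TEM2 had the largest change of the 3 repressors and the most uneven level in Col-0. Raw reads on TEM2 were 1736, 992 and 526 in Col-0 replicates 1, 2 and 3, and 3788, 4764 and 3414 in mrg1 mrg2. Normalized, TEM2 had 1709, 1021 and 519 counts in Col-0 and 3966, 4438 and 3501 in the mutant. The lowest mutant library was above the highest Col-0 library, so the groups did not overlap, as was so for 99.8% of the 531 higher genes. The mean of TEM2 was 1083 ± 597 normalized counts over the 3 Col-0 libraries and 3969 ± 468 over the 3 mutant libraries (SD), 3.66-fold higher in the mutant.

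The Col-0 libraries of TEM2 differed 3.29-fold from lowest to highest, while the mutant libraries differed 1.27-fold. Its coefficient of variation was 55.2% in Col-0, which ranked 16 among the 435 listed genes with a mean of at least 50 normalized counts, where the median was 16.9%. In the mutant the coefficient was 11.8%, against a median of 13.3%. TEM1, by comparison, varied by 12.0% in Col-0 and 17.7% in the mutant. The large spread of TEM2 was thus seen in Col-0, with replicate 1 high and replicate 3 low.

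The change of TEM2 was 2.32-fold in replicate pair 1, 4.34-fold in pair 2 and 6.74-fold in pair 3, a mean log2 change of 2.03 ± 0.77 (SD, n = 3 pairs). The range between pairs, 1.54 on the log2 scale, ranked 17 of the 435 genes, where the median range was 0.49. TEM2 had a log2 change of 1.87 and an adjusted p of 4.45e-05 in the authors' deposited table, rank 90 of 531 higher genes by size, against a median of 1.08. The edgeR refit gave TEM2 a log2 change of 1.87 (SE 0.36, adjusted p = 0.00088 over the listed genes), past the mark. Leaving out Col-0 replicate 1 raised it to 2.37 (edgeR adjusted p = 3.16e-05), and leaving out Col-0 replicate 3 lowered it to 1.54 (edgeR adjusted p = 0.000746). TEM2 passed the mark in both, as did 73.4% and 46.7% of the higher genes in those fits. With mutant replicate 2 left out the log2 change was 1.79 (edgeR adjusted p = 0.00442), and TEM2 then narrowly missed the mark. In that fit the mark corresponds to an edgeR adjusted p of 0.00435, and 35.6% of the higher genes passed it.

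**Figure D2:**
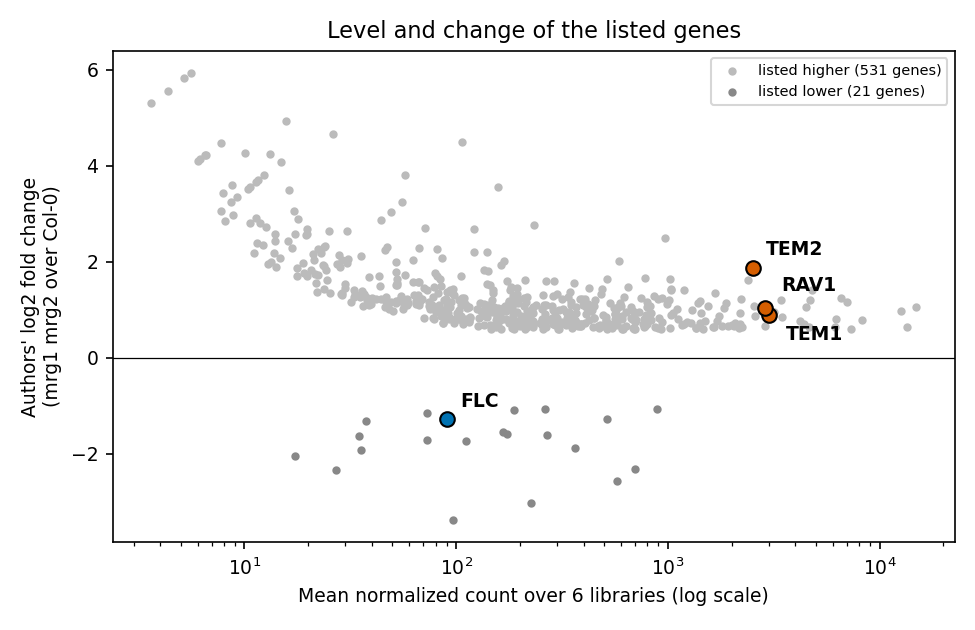
Mean normalized count over the 6 libraries (x axis, log scale) against the authors' log2 fold change of mrg1 mrg2 over Col-0 (y axis) for 531 higher and 21 lower genes (grey), with FLC, TEM1, TEM2 and RAV1 marked. TEM1 and TEM2 lie among the higher genes with the highest counts, at ranks 19 and 24 of 531, and FLC, at rank 14 of 21, among the lower genes. These counts are not divided by transcript length.

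The RAV family was represented by a further listed gene, RAV1 (AT1G13260, chromosome 1, 4542168 to 4543970, plus strand, 1 exon), whose protein has the same pair of DNA-binding domains and is known to restrain growth. Of the 4 genes on the list of this family, 3 were listed as higher, 0 as lower, and EDF3 was not listed. Over all 22995 genes, 2.31% were listed as higher. TEM1 and TEM2 were themselves taken from the higher genes, so nothing is read from that count. RAV1 had 2185, 1926 and 1539 raw reads in Col-0 replicates 1, 2 and 3, and 2940, 4090 and 4595 in mrg1 mrg2. The RAV1 means were 1884 ± 328 normalized counts for Col-0 and 3867 ± 819 for the mutant (SD over 3 libraries per genotype). The groups of RAV1 did not overlap, as was so for 99.8% of the 531 higher genes. It had a log2 change of 1.04 and an adjusted p of 0.000102 in the authors' deposited table. The edgeR refit gave RAV1 1.04 (SE 0.24, adjusted p = 0.00171 over the listed genes), past the mark. With replicate number as a block RAV1 had 1.03 (edgeR adjusted p = 0.00409) and missed the mark, which in that fit 73.3% of the higher genes passed, and 90.5% of the lower. RAV1 passed it with DESeq2, both without the block (1.04, adjusted p = 4.43e-05) and with it (1.03, adjusted p = 8.48e-05).

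Per kilobase of transcript, the 3 RAV family genes lay close together in the mutant, and TEM2 was the lowest of them in Col-0. In mrg1 mrg2 the normalized count per kb was 2225 ± 395 for TEM1, 2204 ± 260 for TEM2 and 2145 ± 454 for RAV1 (SD, n = 3 each), so these neighbours in the order differed by less than their spread. In Col-0 it was 1201 ± 144 for TEM1, 1045 ± 182 for RAV1 and 601 ± 332 for TEM2. TEM1 and RAV1 in Col-0 differed by less than the SD of RAV1, and the TEM2 mean lay below both, with its highest library at 949 per kb above the lowest RAV1 library at 842 per kb. FLC stood far below, at 124 ± 12.1 per kb in Col-0, and at 39.2, 54.5 and 58.1 per kb in mutant replicates 1, 2 and 3. The annotation's longest transcript set each length; which transcripts were present was not measured.

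**Figure D3:**
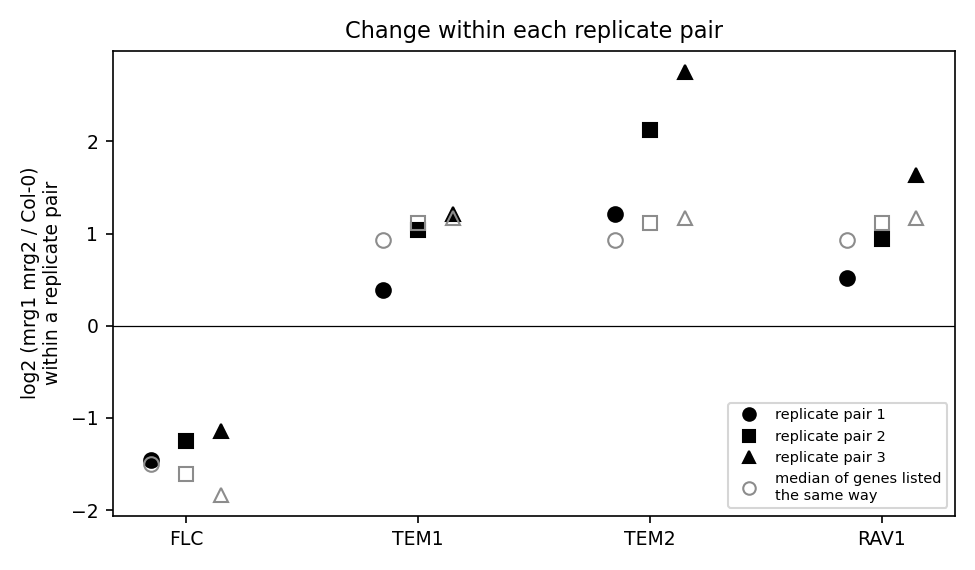
The log2 ratio of mrg1 mrg2 to Col-0 normalized counts (y axis) for libraries with the same replicate number, for FLC, TEM1, TEM2 and RAV1 (filled symbols), with the median over all genes listed in the same direction (open symbols). FLC lies between -1.46 and -1.15; the changes of TEM1, TEM2 and RAV1 are smallest in pair 1 and largest in pair 3.

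The 3 RAV family genes shared their order of libraries in Col-0, but not in the mutant. Replicate 1 was the highest and replicate 3 the lowest Col-0 library for TEM1, TEM2 and RAV1, an order also found in 153 of the 531 higher genes (28.8%). All 3 changed least in replicate pair 1 and most in pair 3, as did 172 of the 531 higher genes (32.4%), but this draws on the same Col-0 values. In the mutant, replicate 1 was the lowest library for TEM1 and RAV1 (3114 and 3078 normalized counts), and replicate 3 for TEM2 (3501). Replicate 1 was the lowest mutant library in 206 of the 531 higher genes (38.8%). FLC went the other way in Col-0, with replicate 1 lowest, and had its largest decrease in pair 1. The variance of FLC in Col-0 was 1.24 times the counting variance, so its order of libraries is near counting error. Replicates have no order, so for the RAV family genes these are statements on which libraries stood out, and none is made for FLC. Col-0 replicate 1 was the highest of the wild-type libraries in 255 of the 531 higher genes (48.0%). Without Col-0 replicate 1 the edgeR log2 changes were 0.98 for TEM1, 2.37 for TEM2 and 1.14 for RAV1. Taking away the highest Col-0 library must raise these changes, so nothing is read from the direction of the shift. TEM1 passed the mark in that fit (edgeR adjusted p = 0.000935), as did 73.4% of the higher genes.

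Whether TEM2 changed by a larger factor than TEM1 was examined by their ratio within a library, which no size factor can alter. There were 0.717, 0.493 and 0.276 TEM2 reads for each TEM1 read in Col-0 replicates 1, 2 and 3, and 1.27, 1.04 and 0.802 in mrg1 mrg2. The genotypes did not overlap, and in both of them replicate 1 had the highest and replicate 3 the lowest ratio. The mean log2 ratio was -1.12 ± 0.70 for Col-0 and 0.03 ± 0.33 for the mutant (SD, 3 libraries per genotype), a difference of 1.15 or 2.22-fold (exact permutation test, two-sided p = 0.1, the smallest that 3 against 3 libraries allow). Within the pairs the ratio was higher in the mutant by 0.83, 1.08 and 1.54 on the log2 scale (1.15 ± 0.36, SD, n = 3 pairs; exact sign-flip permutation test, two-sided p = 0.25, the smallest that 3 pairs allow). Neither exact test could reach 0.05 with this number of libraries; the larger factor for TEM2 was seen in all 3 pairs.

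The same ratios were taken against RAV1, so that 3 ratios were compared in all. The TEM2 to RAV1 ratio was higher in the mutant by 1.00 on the log2 scale (exact permutation test, two-sided p = 0.2), with 0.70, 1.18 and 1.12 in the 3 pairs. The TEM1 to RAV1 ratio was lower by 0.15 (exact permutation test, two-sided p = 0.3), with -0.13, 0.10 and -0.42 in the pairs, so its direction was not shared by all pairs. Adjusted over the 3 ratios compared, each p was 0.3 (Benjamini-Hochberg, exact permutation tests). TEM1 reads for each RAV1 read stayed between 0.927 and 1.24 over all 6 libraries.

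**Figure D4:**
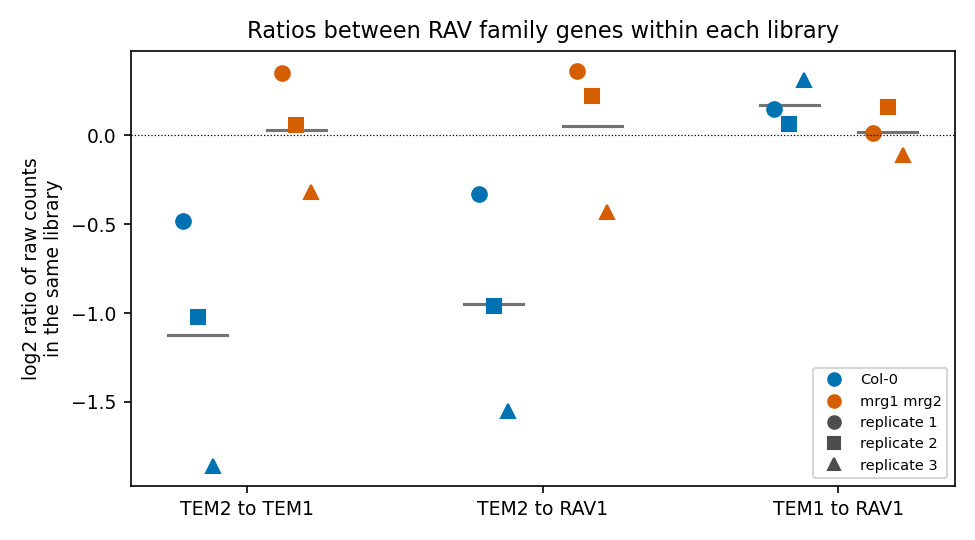
The log2 ratio of raw counts of 2 RAV family genes in the same library (y axis), for Col-0 and mrg1 mrg2; symbols give the replicate number and lines the mean of 3 libraries. TEM2 to TEM1 lies between -1.86 and -0.48 in Col-0 and between -0.32 and 0.35 in the mutant, while TEM1 to RAV1 stays between -0.11 and 0.31.

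Because TEM1, TEM2 and RAV1 were higher together while FLC was lower, the 250 bases before the annotated start of each gene are shown, 5′ to 3′ on the gene's strand, from the TAIR10.1 genome and RefSeq annotation. Both strands were searched for CACCTG, bound by the B3 domain of RAV1, CAACA, bound by its AP2 domain, the G-box CACGTG, the GCC box GCCGCC, the cold and drought element core CCGAC, the W-box TTGACC, the evening element AAATATCT and the CArG box of MADS-domain factors. Capitals mark every match. The windows lie at chr1:8983315-8983564 (minus strand) for TEM1, chr1:25879905-25880154 (plus) for TEM2, chr1:4541918-4542167 (plus) for RAV1 and chr5:3179449-3179698 (minus) for FLC.
TEM1 promoter: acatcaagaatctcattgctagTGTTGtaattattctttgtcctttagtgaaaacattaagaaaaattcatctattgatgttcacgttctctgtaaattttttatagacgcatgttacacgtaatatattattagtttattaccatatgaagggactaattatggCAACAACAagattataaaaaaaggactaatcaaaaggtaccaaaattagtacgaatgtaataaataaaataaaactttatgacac
TEM2 promoter: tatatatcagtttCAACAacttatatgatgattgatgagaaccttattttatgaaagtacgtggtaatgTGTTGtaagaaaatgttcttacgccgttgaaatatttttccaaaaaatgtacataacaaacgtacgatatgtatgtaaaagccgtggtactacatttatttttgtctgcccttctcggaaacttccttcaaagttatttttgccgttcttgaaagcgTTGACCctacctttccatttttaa
RAV1 promoter: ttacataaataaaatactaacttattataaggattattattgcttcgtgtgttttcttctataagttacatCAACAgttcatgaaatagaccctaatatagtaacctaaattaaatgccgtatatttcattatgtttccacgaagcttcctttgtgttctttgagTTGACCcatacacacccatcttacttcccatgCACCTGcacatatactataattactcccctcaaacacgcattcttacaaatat
FLC promoter: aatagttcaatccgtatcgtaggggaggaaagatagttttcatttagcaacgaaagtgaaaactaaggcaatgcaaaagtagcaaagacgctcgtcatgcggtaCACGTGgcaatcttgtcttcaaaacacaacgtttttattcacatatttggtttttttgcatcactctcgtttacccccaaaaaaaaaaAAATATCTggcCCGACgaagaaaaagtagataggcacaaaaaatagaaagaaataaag
CAACA was the motif found in all 3 RAV family windows, with 3 matches in TEM1, 2 in TEM2 and 1 in RAV1, and it occurred in 47.4% of 27443 promoters of the same length. TTGACC occurred in TEM2 and RAV1, 1 match each, and in 12.2% of promoters. CACCTG had 1 match, in RAV1, against 2.57% of promoters. The FLC window held 1 match of CACGTG, 1 of CCGAC and 1 of AAATATCT, which occurred in 6.49%, 12.0% and 4.79% of promoters, and the last 2 lie close together near the start. GCCGCC (1.87% of promoters) and the CArG box (2.52%) had 0 matches in the 4 windows, which says only that these letters are not there. The bases shared by CAACA matches that overlap in TEM1 were counted in both matches. A match is a string of letters and not a measured site. The end of the FLC window nearest the gene also lies within the antisense gene.

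Of 63 genes on 6 lists of flowering regulators, 3 were listed as higher and 1 as lower, namely TEM1, TEM2, RAV1 and FLC; of all 22995 genes, 2.31% were listed as higher and 0.0913% as lower. The lists were built around the members, so nothing is read from that count. Among the FLC clade FLC was the only listed gene of 6, and MAF1 to MAF5 were not listed. Of the other 4 lists, 0 of 26 regulators of FLC (among them FCA, FLD and VIN3), 0 of 7 photoperiod genes with FT and CO, 0 of 12 integrators and other repressors with SOC1 and SVP, and 0 of 8 gibberellin genes with GA3OX1 and GA3OX2 were listed. At the shares over all genes, counts of 0 in lists of these sizes are near the background. These unlisted genes have no values here, so nothing is said of their levels, including those of FT, SOC1 and GA3OX1, known targets of these repressors. From the ranks, 195 genes with an adjusted p as low as those listed were inferred to lie outside the tables, and they were not analysed here.

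The listed genes with the profile most like each member were found by the root mean square difference of log2(normalized count + 1), centred on the Col-0 mean, over the 6 libraries, among 434 other genes with a mean of at least 50 normalized counts. For FLC the nearest were AT3G62460 (0.27), the cysteine protease-like gene AT3G49340 (0.30), the ankyrin repeat gene AT1G05640 (0.34), the endochitinase gene AT2G43590 (0.36) and the beta-amylase gene BAM5 (0.40), against a median of 1.61. All 5 are among the 21 lower genes, which the measure favours for FLC, since it takes in the direction and size of the change. AT3G62460 had 254 ± 36.6 normalized counts in Col-0 and 119 ± 7.47 in the mutant (SD, n = 3 each).

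TEM1 was nearest to AT4G23880 (0.083), the cellulose synthase gene CESA9 (0.085), AT4G03820 (0.090), the GXM3 gene (0.10) and the receptor-like kinase gene AT5G39030 (0.13), against a median of 0.30. RAV1 followed at rank 13 (0.15), and AT4G23880 and CESA9 were also the nearest genes to RAV1. CESA9, a catalytic subunit of cellulose synthase, had 132 ± 20.4 normalized counts for Col-0 and 254 ± 32.9 for the mutant (SD, n = 3 each). In turn TEM1 was the gene at rank 4 from RAV1.

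By this measure TEM2 was not near its relatives: TEM1 stood at rank 213 of 434 (0.93) and RAV1 at rank 134 (0.82), against a median of 0.93. The measure takes in the size of the change, in the authors' log2 values 1.87 for TEM2, 0.89 for TEM1 and 1.04 for RAV1. The order of the Col-0 libraries was shared by all 3, but that of the mutant libraries was not. The genes nearest to TEM2 were AT1G77960 (0.24), the flavin monooxygenase-like gene AT1G12160 (0.30), AT1G77765 (0.33), RD26 (0.35), which encodes a NAC transcription factor of the drought and abscisic acid response, and the zinc finger gene AZF1 (0.36). RD26 had 1182 ± 859 normalized counts for Col-0 against 3609 ± 348 for the mutant, and AZF1 had 59.7 ± 39.8 against 210 ± 49.4 (SD, n = 3 each). Like TEM2, both were uneven in Col-0, which the measure favours, since it matches genes on all 6 libraries.

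**Figure D5:**
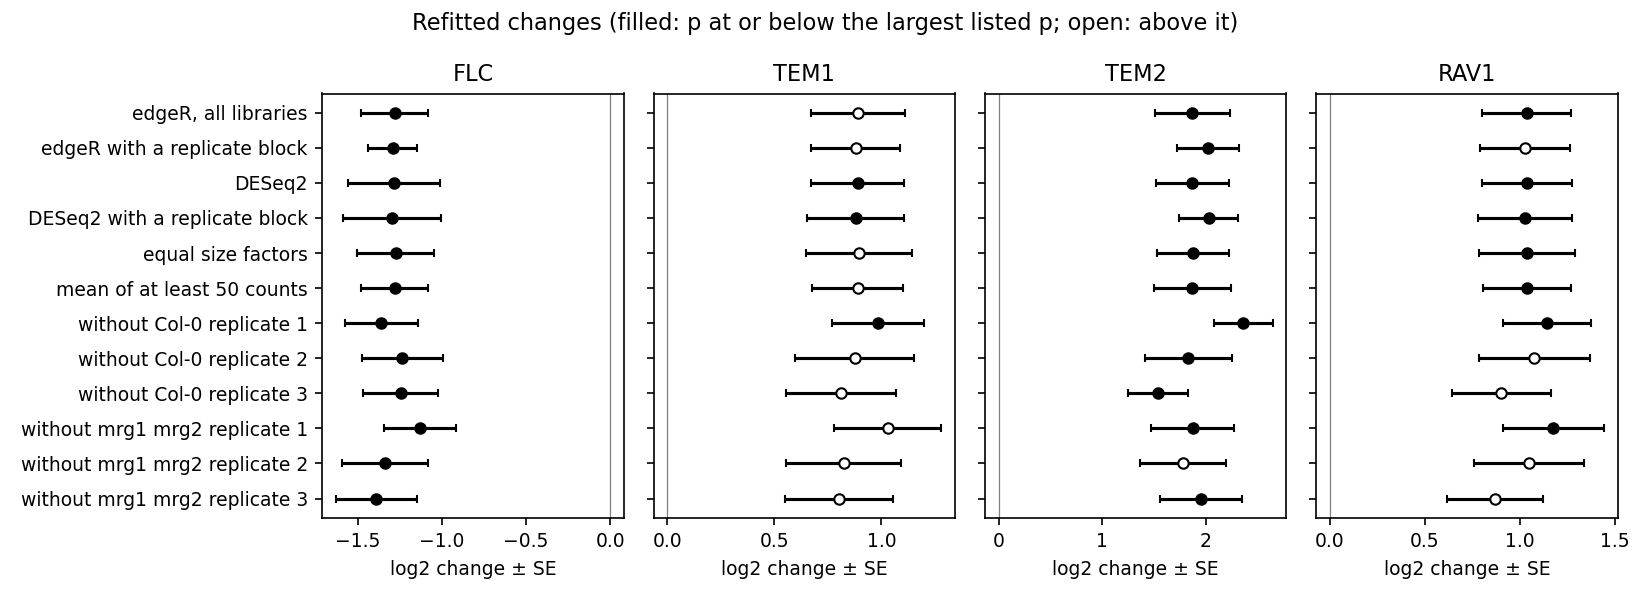
The log2 change of mrg1 mrg2 over Col-0 with its SE (x axes) for FLC, TEM1, TEM2 and RAV1 under 12 fits of the listed genes; filled points have p at or below 0.00161 and open points above it. FLC is filled in all 12, TEM2 in 11, RAV1 in 7 and TEM1 in 3, and every change keeps its sign; with DESeq2 100% of the lower genes pass, and with DESeq2 and a replicate block 78% of the higher genes.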

How the data were processed

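RNA was measured by stranded, ribosomal RNA-depleted sequencing (single-end reads of 50 bases, per the labels' protocols) in 3 Col-0 and 3 mrg1 mrg2 libraries. The deposited raw counts, so named per the file headers, are integers for each of 552 listed genes in each library. The log2 fold change, p-value and adjusted p-value in the authors' deposited tables compare mrg1 mrg2 with Col-0, per the file headers. TAIR10 and DESeq2 are named in the submitters' processing notes; the aligner and counter were not given in the sources used here. Sequences and gene models came from the TAIR10.1 genome and RefSeq annotation, whose strand matched the tables for 549 of 549 nuclear genes.

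Library totals cannot be had from listed genes alone. Size factors (0.955 to 1.07) were therefore solved for by robust least squares so that the counts give back the log2 fold changes in the authors' deposited tables. The solution used 435 genes with a mean of at least 50 counts and left a residual SD of 0.000885 (log2), where factors of 1 leave 0.00935. Dividing raw counts by these factors gave normalized counts. The number of genes behind the authors' adjustment, 22995, was inferred from the ranks linking p-value and adjusted p-value. TMM and median-of-ratios scaling were not run, since most listed genes differ in 1 direction.

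Refits of all 552 genes used the quasi-likelihood test of edgeR 4.0.16 as the main test and DESeq2 1.42.0 as an alternative (R 4.3.3), with genotype alone in the main model, and Benjamini-Hochberg adjustment over the genes fitted. SEs of edgeR changes are the change divided by the square root of F. The pass mark was the largest listed p-value, 0.00161. As the listed genes were chosen for a difference, the spread estimated over them is not that of all genes. The scripts were tested on simulated counts. Chi-square per degree of freedom between replicates was 10.7 to 27.2, where counting noise gives 1, so no library was a repeat of another. Same-numbered libraries deviated together from their genotype means (r = 0.40, 0.55 and 0.32 across 435 genes, which are not independent replicates). Where numbers differed r was -0.42 to 0.02, but centring on means of 3 libraries ties these values to the others. The sample titles give the numbers and name no shared experiment. Replicate numbers were treated as pairs in the changes per pair, the sign-flip test and the fits with a block. The main fit and those without each library in turn had genotype alone. Ratios between genes were compared with exact permutation tests. Logs for pairs and profiles used a pseudocount of 1.

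The members, lists and tests were chosen with earlier results of these data known. Genes named were the 3 members, MRG2, listed genes of the 6 flowering lists, and the 5 genes most like each member. Fits with replicate number as a block, with DESeq2, with equal size factors, with a filter on low counts and without each library in turn were the alternatives; those of RAV1 and the ratios to RAV1 were chosen after seeing the data.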

Additional observations from a re-analysis of the deposited data

How the results depend on the processing

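All changes of FLC, TEM1, TEM2 and RAV1 kept their sign in the 12 fits. FLC passed the mark in all 12, between -1.39 and -1.13 when each library was left out in turn (edgeR adjusted p 0.000168 to 0.00217). TEM1 missed the mark with edgeR on all libraries (adjusted p = 0.00255) and passed with DESeq2 (0.89), with DESeq2 and a replicate block (0.88) and without Col-0 replicate 1; its change without each library in turn ran from 0.80 to 1.03 (edgeR adjusted p 0.000935 to 0.0143). TEM2 without each library in turn ran from 1.54 to 2.37 (edgeR adjusted p 3.16e-05 to 0.00442) and narrowly missed the mark without mutant replicate 2. RAV1 passed with edgeR on all libraries, missed the mark with edgeR and the block and with edgeR on leaving out replicate 2 or 3 of either genotype, passed with DESeq2 with or without the block, and ran from 0.87 to 1.18 (edgeR adjusted p 0.000653 to 0.00763). With replicate number as a block, edgeR gave -1.29 for FLC, 0.88 for TEM1 and 2.03 for TEM2, and changed no call of these 3. The TEM2 to TEM1 difference of 1.15 was 1.15 within pairs, 0.98 from summed counts, and 0.78 to 1.47 without each library in turn (exact permutation p 0.1 to 0.2).

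Of the 552 listed genes, 393 passed edgeR and 408 passed it with the block. With genes of at least 50 mean counts, 249 passed in all and 236 of the higher genes, where 435 genes were tested. Without each library in turn, 204 to 409 passed in all, 189 to 390 of the higher genes and 14 to 19 of the lower genes; without Col-0 replicate 2, 254 passed, without mutant replicate 2, 204, and without Col-0 replicate 3, 248 of the higher genes. The cause was not tested. At the FLC level, counting error sets much of the spread; at the TEM1 and TEM2 levels it does not.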

Other observations

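Listed genes near the members are given beside the share over all 22995 genes, of which 2.31% were listed as higher and 0.0913% as lower. Within 100 kb of FLC, 1 of 62 protein-coding genes was listed, RABH1E (AT5G10260), a Rab GTPase gene, and it was higher: 141, 141 and 167 raw reads in Col-0 replicates 1, 2 and 3 against 201, 243 and 235 in mrg1 mrg2. It went opposite to FLC, with a log2 change of 0.60 and an adjusted p of 0.0177 in the authors' deposited table. Within 100 kb of TEM1, 1 of 46 was listed, AT1G25400, with 706, 338 and 463 raw reads in Col-0 and 1032, 1123 and 1502 in mrg1 mrg2. Its log2 change in the authors' deposited table was 1.29, with an adjusted p of 0.000474, and like TEM1 it was highest in replicate 1 among the Col-0 libraries. Within 100 kb of TEM2, 0 of 52 were listed. Near RAV1, AT1G13530 was the 1 listed gene of 57, with 5, 1 and 2 raw reads in Col-0 and 22, 18 and 20 in the mutant, too few reads for a precise fold.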
